A study of Danio rerio with 24 samples.

Results

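In the intestine of zebrafish larvae at 9 days post fertilization (dpf), regions of the histone mark H3K4me3 were compared with regions of the histone mark H3K27me3 in the same tissue. A region was counted when a peak was called at the same place in both libraries of a mark, with at least 1 base in common, and it spans the joined peaks. This gave 17877 H3K4me3 regions and 6484 H3K27me3 regions, 24361 in all, out of 65989 such regions over the 3 ages of the study (20313 at 5 dpf, 21315 at 7 dpf). The single 9 dpf input library, which was sequenced without an antibody, held 809 peaks and serves as background.

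The larvae were AB wild type and carried the transgene tg(cldn15la:GFP), in which regulatory sequence of the intestinal claudin gene cldn15la drives green fluorescent protein. All groups of the study carried it, the input and the RNA libraries included. They were fed Gemma Micro, rotifers and Artemia. Each chromatin immunoprecipitation (ChIP) library came from a pool of 25 dissected intestines, with an antibody to H3K4me3 or to H3K27me3, and the input came from 5 intestines. Whether the pools of a mark came from separate clutches is not stated, so the spread between libraries may be technical in part. RNA at 9 dpf came from 3 pools of 10 intestines and is used here only to check the tissue.

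H3K4me3 is laid down at the start sites of transcribed genes and at many CpG-rich promoters, where it recruits factors that help transcription begin. H3K27me3 is laid down by Polycomb repressive complex PRC2, is bound by PRC1, and often spreads over developmental regulator genes that a cell type keeps silent. Places that carry both marks are called bivalent and were first described at poised developmental genes of stem cells. In a dissected organ a place can carry both because the same nucleosomes do, or because different cells carry 1 mark each, and these cannot be told apart here.

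Of the cell type markers sought in the RNA, those of enterocytes had the highest summed level. All 8 enterocyte markers were present, with a summed level of 674942 to 988115 normalized counts per library, of which apobb.1, an apolipoprotein B gene, had 530987 to 752399. The 4 markers of lysosome-rich enterocytes summed to 21466 to 26828, the 3 of smooth muscle to 6964 to 10087 and the 3 of liver to 206 to 248. The exocrine pancreas markers, of which 2 of 3 were in the table, summed to 1249 to 2116. The 3 of skeletal muscle summed to 343 to 409, the 3 of leukocytes to 281 to 349 and the 3 of enteric neurons to 192 to 258. The 3 markers of enteroendocrine cells, an intestinal cell type, summed to 102 to 126, below those of liver and skeletal muscle. The 3 of islets summed to 148 to 181, nearly all of it from gcga, at 142 to 173. The other islet markers were low, with ins at 5.08 to 10.8 and sst2 at 1.02 to 2.09. For goblet cells and erythrocytes 1 of 2 markers was in the table, at 680 to 984 and 13.7 to 36.5. The 2 epidermal markers summed to 33389 to 44504, nearly all of it from the keratin gene krt4. No marker found in the table was at 0, and the part that chromatin of other cell types has in the ChIP results was not tested.

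The calls of H3K4me3 were close to the same in both libraries, and those of H3K27me3 were less so. H3K4me3 libraries 1 and 2 held 18593 and 18799 peaks, of which 96.3% and 95.7% overlapped a peak of the other library. H3K27me3 libraries 1 and 2 held 9119 and 8753 peaks, of which 74.3% and 77.2% did. Peaks found in 1 library only were short and of low fold for both marks. Their median width was 315 and 299 bases for H3K4me3 and 417 and 426 bases for H3K27me3. Fold means the enrichment over background that the authors' peak caller gave each peak. Whether it is a mean or a summit value within the peak is not given in the sources used here. The fold of a region is the mean of its highest peak in each library. On the log2 scale the fold of a region in library 1 correlated with that in library 2 at r = 0.984 (Spearman rho = 0.985) over 17877 H3K4me3 regions and at r = 0.881 (rho = 0.813) over 6484 H3K27me3 regions. These correlations describe regions of the same pair of libraries, which are not independent replicates.

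H3K4me3 formed compact regions of similar size, and H3K27me3 formed regions of very unequal size with a long tail of wide domains. The median width of regions was 1141 bases for H3K4me3, 1526 bases for H3K27me3 and 370 bases for input peaks. The widest 10% began at 2222 bases for H3K4me3 and at 4776 bases for H3K27me3, and the widest region of each spanned 10291 and 86775 bases. Domains of 5 kb or more numbered 62 among H3K4me3 regions, 0.347% of them, and 606 among H3K27me3 regions, 9.35% of them. These domains held 1.66% of the bases covered by H3K4me3 and 39.0% of the bases covered by H3K27me3. In all, H3K4me3 regions covered 23.2 Mb, H3K27me3 regions 15.9 Mb and input peaks 0.530 Mb. Regions under 500 bases made up 9.38% of the H3K4me3 regions and 6.26% of the H3K27me3 regions, against 61.1% of the input peaks.

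The order of the medians depended on which peaks were counted. Over all called peaks, the median width was 1051 and 1022 bases in the H3K4me3 libraries and 876 and 900 bases in the H3K27me3 libraries, so the ranges did not overlap and H3K4me3 was higher at the authors' threshold. The means were 1036.5 ± 20.5 bases for H3K4me3 and 888 ± 17.0 bases for H3K27me3 (SD, n = 2 each), a difference of 148.5 bases (exact two-sided permutation test, p = 0.333, the smallest that 2 against 2 libraries allow). With only peaks of a -log10 q of 5 or more the difference had the opposite sign, -461.5 bases (exact p = 0.333). The mean width went the other way, with 1187 and 1153 bases in the H3K4me3 libraries and 1659 and 1704 bases in the H3K27me3 libraries (exact p = 0.333). Regions found in both libraries leave out the short peaks of a single library, which were 25.7% and 22.8% of the H3K27me3 peaks and 3.67% and 4.35% of the H3K4me3 peaks. The log2 ratio of the median region widths, H3K4me3 over H3K27me3, was -0.42 for regions in both libraries and 0.16 when a region kept only the bases that both libraries covered. The long tail of H3K27me3 is thus the part of the width comparison that does not rest on the median.

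**Figure D1:**
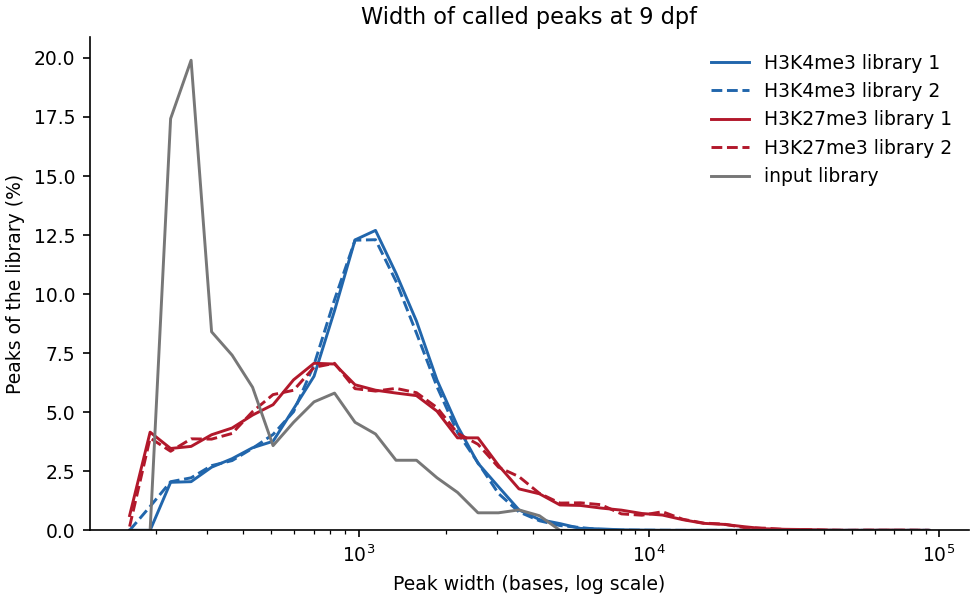
Width of the called peaks of each 9 dpf library: the x axis is peak width in bases on a log scale, and the y axis the percentage of the library's peaks in each of a set of equal steps on that scale. The curves of the libraries of a mark nearly coincide; H3K4me3 peaks at about 1 kb, H3K27me3 is flat and reaches past 10 kb, and most input peaks are under 500 bases.

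Inside the called regions the marks also differed in texture. The deposited peaks are broad calls that hold narrower blocks of stronger enrichment. Blocks made up 87.2% and 86.4% of the called bases in the H3K4me3 libraries, against 55.6% and 55.7% in the H3K27me3 libraries and 57.5% in the input. Peaks with no block at all were 5.20% and 5.35% of the H3K4me3 peaks, and 37.8% and 36.7% of the H3K27me3 peaks. H3K27me3 was thus called with stronger blocks over a smaller part of its bases, and H3K4me3 as nearly solid peaks. The calls also differed in strength. The median -log10 q was 56.6 and 54.5 in the H3K4me3 libraries, 5.05 and 5.13 in the H3K27me3 libraries and 11.8 in the input. The part of strength in the block shares was not tested.

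The fold of H3K4me3 spanned a much larger range. Its median was 12.4 over H3K4me3 regions (12.0 and 11.6 over the peaks of libraries 1 and 2) and its maximum 64.0. Over H3K27me3 regions the median was 4.46 (4.17 and 4.29 over the peaks of libraries 1 and 2) and the maximum 10.4. The 809 input peaks had a median of 5.42 and a maximum of 34.0, so a high fold by itself does not mark a histone region. These values are the authors' own and were not tested between marks. The background that each was taken against is not given in the sources used here, and it may differ between ChIP and input. Wider regions tended to have a higher fold within each mark, with Spearman rho = 0.440 over H3K4me3 regions and 0.528 over H3K27me3 regions. This did not hold for the widest H3K4me3 regions. The 62 of 5 kb or more had a median fold of 10.0, against 12.4 for shorter ones. For H3K27me3 the medians were 6.13 at 5 kb or more and 4.38 for shorter ones.

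The marks met at a minority of H3K4me3 regions and at a large share of H3K27me3 regions. Of the 17877 H3K4me3 regions, 2827 overlapped an H3K27me3 region by at least 1 base, 15.8% (95% exact binomial interval 15.3% to 16.4%). Of the 6484 H3K27me3 regions, 2681 overlapped an H3K4me3 region, 41.3% (interval 40.1% to 42.6%). Of the 809 input peaks, 4 lay on H3K4me3, 0.494%, and 36 on H3K27me3, 4.45%. None of the input peaks lay on both, which allows a share of up to 0.371% by the limit of 3 counts and of up to 0.455% by the exact binomial interval. Such intervals and limits cover counting error only. Whether the ChIP peaks were called against this input is not given in the sources used here. If they were, calls would be fewer where the input has a peak. The input shares here, and the input values around centres and in distances below, are therefore not a measured chance level. Seen from the other side, 4 H3K4me3 regions and 36 H3K27me3 regions overlapped an input peak.

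The libraries of a mark were close to each other, and for H3K27me3 both were below the 41.3% of regions found in both libraries. Of the peaks of H3K4me3 libraries 1 and 2, 16.5% and 17.0% overlapped an H3K27me3 region. Of the peaks of H3K27me3 libraries 1 and 2, 32.4% and 33.3% overlapped an H3K4me3 region. The means were 16.8% ± 0.327 for H3K4me3 and 32.9% ± 0.651 for H3K27me3 (SD, n = 2 each), a difference of -16.1 percentage points (exact two-sided permutation test, p = 0.333, the smallest possible). Both libraries of a mark were set against the same regions of the other mark, so the SD leaves out the variation of that other mark. Library against library, the share was 17.6% to 18.3% of H3K4me3 peaks and 34.2% to 35.9% of H3K27me3 peaks. Since the H3K4me3 list is 2.76 times as long, unequal shares of the same overlaps follow from the lengths of the lists. A stricter threshold changed the H3K4me3 share most: with only peaks of a -log10 q of 5 or more, 3574 H3K27me3 regions remained and the overlapping share was 9.86% of H3K4me3 regions and 44.7% of H3K27me3 regions.

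Where the marks met, H3K4me3 was usually the smaller and sat inside H3K27me3. The overlaps formed 2843 pairs of regions with a median shared stretch of 866 bases. In 1682 pairs, 59.2%, the H3K4me3 region lay wholly inside the H3K27me3 region. In 281 pairs, 9.88%, the H3K27me3 region lay wholly inside the H3K4me3 region, and in 880 pairs, 31.0%, each reached past the other. The shared stretches came to 3.14 Mb, 13.6% of the bases of H3K4me3 and 19.8% of the bases of H3K27me3. Of the 2681 H3K27me3 regions with H3K4me3, 2570 held 1 H3K4me3 region, 111 held 2 or more and 8 held 4 or more. The centre of the H3K4me3 region fell in the middle 50% of the H3K27me3 region in 1970 pairs, 69.3%. Among pairs whose H3K27me3 region was 5 kb or more it did so in 341 of 518, 65.8%. The shared stretch was a median of 47.7% of the H3K27me3 region. An H3K4me3 region that lies inside and fills 50% or more must have its centre in that middle part. The share that follows from size alone was not computed, so these values do not show a preferred position.

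Around the centres of H3K4me3 regions, H3K27me3 was most frequent at the centre itself and declined within a few kilobases. An H3K27me3 region covered 14.6% of H3K4me3 centres, 7.78% and 8.09% of the points 1 kb before and after them, and 1.98% and 1.79% of the points 10 kb before and after. Input centres were covered by H3K27me3 in 3.46% of cases. In the other direction, an H3K4me3 region covered 29.2% of H3K27me3 centres, 9.05% and 8.88% of the points 1 kb to either side and 2.33% and 2.47% of those 10 kb away, against 0.371% of input centres. No dip in H3K27me3 coverage was seen at the H3K4me3 centres. The calls are broad and joined over both libraries, so a local loss of signal inside a call would not show. Among H3K4me3 regions with both marks, the share of H3K27me3 calls that were stronger blocks was also highest at the centre. It was 77.7% and 78.5% in H3K27me3 libraries 1 and 2, against 55.6% to 57.9% at 1 kb and 63.1% to 66.1% at 2 kb to either side. These regions were chosen for meeting H3K27me3. Of their centres 88.2% lay in a broad H3K27me3 call in each library, against 41.3% to 43.9% of points at 1 kb. The part of this in the block shares was not tested.

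**Figure D2:**
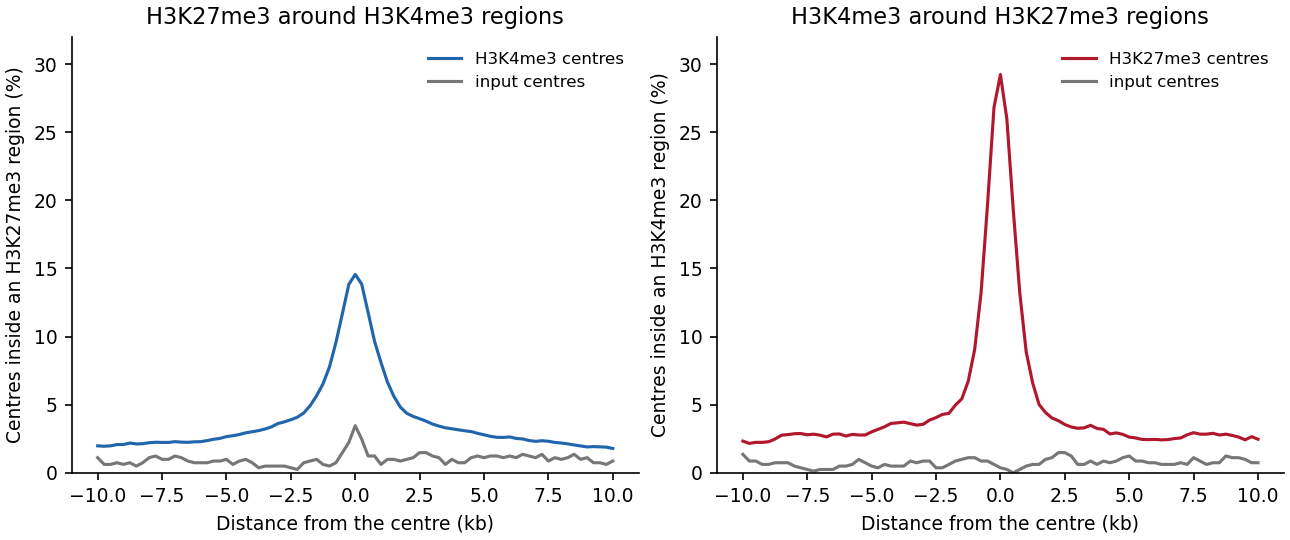
Percentage of region centres, and of points up to 10 kb to either side in steps of 250 bases, that lie inside a region of the other mark (left, H3K27me3 around H3K4me3 and input centres; right, H3K4me3 around H3K27me3 and input centres). Both marked curves peak at 0, at 14.6% and 29.2%, and the input curves stay under 4%.

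H3K4me3 regions that overlapped H3K27me3 were the weaker ones. Their median fold was 5.65, against 13.9 for H3K4me3 regions without H3K27me3. The difference was the same in the single libraries, with 5.71 and 5.63 for regions with H3K27me3 in libraries 1 and 2, and 14.1 and 13.7 for regions without. Their median width was close, 1053 bases with and 1155 bases without H3K27me3. The middle 80% of fold ran from 3.70 to 11.9 in regions with H3K27me3 and from 5.16 to 23.4 in regions without, so the classes overlapped. H3K27me3 regions that overlapped H3K4me3 had a median fold of 4.78 and a median width of 1879 bases, against 4.30 and 1310 bases for those without H3K4me3.

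The share with the other mark ran in opposite directions along the fold of each mark. When H3K4me3 regions were ranked by fold and split into 10 groups of equal number, 48.9% of the lowest group (fold 2.75 to 4.50) overlapped H3K27me3. The share was lower in each next group, at 34.1%, 27.03%, 21.9%, 11.7%, 6.44%, 4.14%, 2.18% and 1.23%, and in the highest group (fold 22.7 to 64.0) it was 0.615%, or 11 of 1788 regions. Of the H3K27me3 regions, 27.4% of the lowest group (fold 1.33 to 3.80) and 70.3% of the highest group (fold 6.07 to 10.4) overlapped H3K4me3. The groups between them ran from 25.5% to 60.8%, and from the third group upward no group was below the one before it. The libraries taken singly gave 48.5% and 49.9% in the lowest and 0.645% and 0.479% in the highest group for H3K4me3. For H3K27me3 they gave 20.6% and 20.8% in the lowest and 66.2% and 67.7% in the highest group.

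Since fold and width were correlated, the same was examined in regions of 1000 to 2000 bases, a band chosen after the values were seen. Across 4 groups of rising fold the share of H3K4me3 regions with H3K27me3 was 38.3%, 8.31%, 2.18% and 0.475%. The share of H3K27me3 regions with H3K4me3 was 29.2%, 32.9%, 40.6% and 54.8%. Both directions were present at like widths. With only peaks of a -log10 q of 5 or more, the difference between highest and lowest group was -30.2 percentage points for H3K4me3, against -48.3 for all regions, and 19.6 points for H3K27me3, against 42.8 for all regions.

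**Figure D3:**
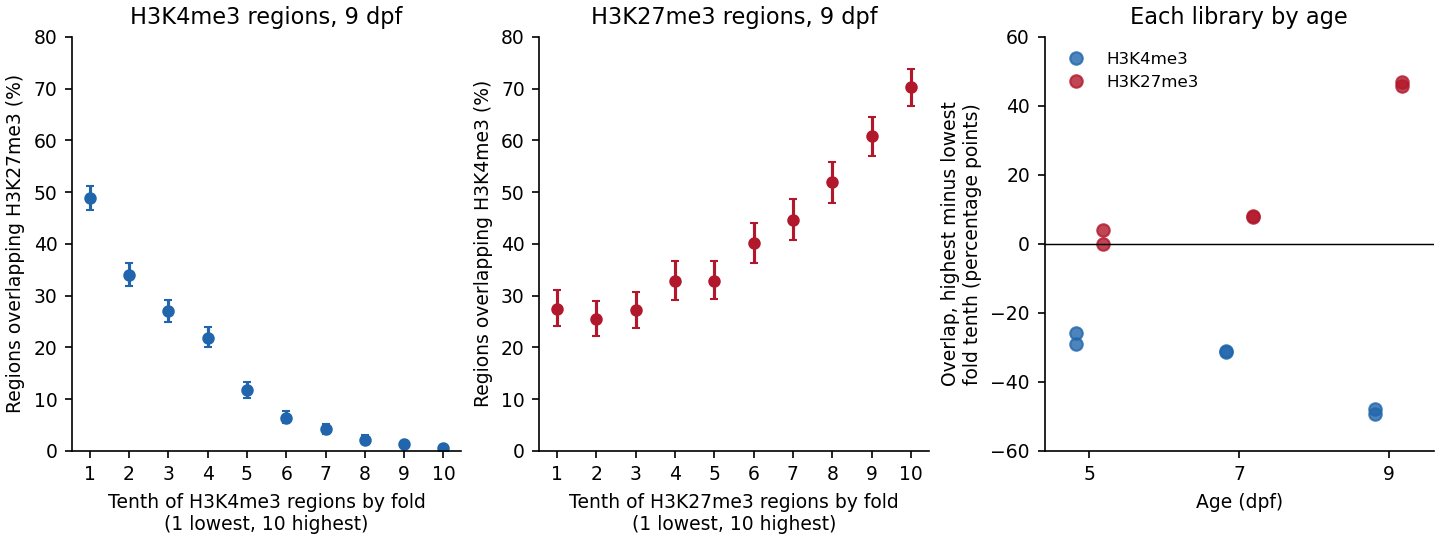
Share of regions that overlap the other mark, in 10 groups ranked by fold, for H3K4me3 (left) and H3K27me3 (middle) at 9 dpf, with 95% exact binomial intervals as bars; the right panel gives highest minus lowest group, in percentage points, for each library at 5, 7 and 9 dpf, with a line at 0. The H3K4me3 share declines to 0.615%, the H3K27me3 share climbs to 70.3%, and the climb for H3K27me3 is near 46 points in the libraries of 9 dpf, against at most 7.93 points in those of 5 and 7 dpf.

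The climb along H3K27me3 fold was much larger at 9 dpf than at the earlier ages. Highest minus lowest group was 3.89 and 0 percentage points in the H3K27me3 libraries of 5 dpf, 7.93 and 7.68 points in those of 7 dpf, and 45.6 and 46.9 points in those of 9 dpf. The mean was 46.3 ± 0.922 points at 9 dpf (SD, n = 2) and 4.87 ± 3.74 points over 5 and 7 dpf (SD, n = 4), and the groups did not overlap (exact two-sided permutation test, p = 0.133, the smallest that 2 against 4 libraries allow). This comparison was chosen after the values were seen. Both H3K27me3 libraries of an age were set against the same H3K4me3 regions, so the SD leaves out the variation of H3K4me3. Over regions in both libraries the values were -6.74 points at 5 dpf, 0.228 at 7 dpf and 42.8 at 9 dpf. The number of H3K27me3 regions was also larger at 9 dpf, with 4446 at 5 dpf, 4374 at 7 dpf and 6484 at 9 dpf. With the 4374 H3K27me3 regions of highest -log10 q taken from each age, and all H3K4me3 regions kept, the values were -8.22, 0.228 and 41.6 points. With only peaks of a -log10 q of 5 or more in both marks, the value at 9 dpf was 19.6 points. That threshold was not applied at 5 or 7 dpf. In the band of 1000 to 2000 bases the share in the highest fold group, set against that in the lowest, was 29.1% against 32.8% at 5 dpf, 38.5% against 42.3% at 7 dpf and 54.8% against 29.2% at 9 dpf. Sequencing depth, antibody and pool are the library's own, and their part in the difference between ages was not tested.

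The decline along H3K4me3 fold was present at every age. Highest minus lowest group was -25.9 and -28.9 points in the libraries of 5 dpf, -31.1 and -31.3 points in those of 7 dpf and -47.8 and -49.4 points in those of 9 dpf. The mean at 9 dpf was -48.6 ± 1.11 points (SD, n = 2) and that over 5 and 7 dpf -29.3 ± 2.52 points (SD, n = 4; exact p = 0.133, the smallest possible). Here too both libraries of an age were set against the same regions of the other mark.

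Few pairs had a fold above the median in both marks. Of the 2843 pairs, 267, or 9.39%, had an H3K4me3 fold above the median of all H3K4me3 regions, and 1894, or 66.6%, had an H3K27me3 fold above the median of all H3K27me3 regions. Both held in 145 pairs, 5.10%, a share that cannot exceed the 9.39% of pairs with a high H3K4me3 fold. The share that 9.39% and 66.6% would give by themselves was not computed, so 5.10% does not show that the marks avoid each other. A fold also belongs to the whole region and need not be that of the shared stretch. Across pairs the folds of the marks had a Spearman rho of -0.241 (n = 2843), a weak relation. Ranked by the lower of the percentiles of its folds, the first pair joined the H3K4me3 region chr20:9794739-9796671 on GRCz10, with folds of 25.0 and 27.05 in libraries 1 and 2, to the H3K27me3 region chr20:9795207-9795918, with folds of 7.34 and 5.95. The H3K27me3 region lay wholly inside the H3K4me3 region, and both marks were also present there at 5 and at 7 dpf. The next was chr21:28690400-28693291 (H3K4me3, folds 21.5 and 22.0), which met the end of the H3K27me3 region chr21:28681403-28690954 (folds 7.08 and 7.49) over 555 bases. Neither earlier age had both marks called at that stretch. In the third pair, chr6:10627219-10630403 (H3K4me3, folds 24.6 and 18.2) met chr6:10629025-10632984 (H3K27me3, folds 5.90 and 5.97) over 1379 bases. Both marks were again called there at 9 dpf alone.

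Regions with both marks at 9 dpf were less often called earlier for H3K4me3, and more often for H3K27me3, than regions with 1 mark. Of H3K4me3 regions with H3K27me3, 66.7% overlapped an H3K4me3 region of 5 dpf and 79.8% one of 7 dpf, against 90.8% and 95.1% of H3K4me3 regions without H3K27me3. Of H3K27me3 regions with H3K4me3, 72.0% overlapped an H3K27me3 region of 5 dpf and 73.7% one of 7 dpf, against 53.9% and 54.7% of those without H3K4me3. Of the 2843 shared stretches, 1299 (45.7%) had both marks at 5 dpf, 1632 (57.4%) at 7 dpf and 1151 (40.5%) at both ages. At 5 dpf 573 stretches had H3K4me3 alone, 768 had H3K27me3 alone and 203 had neither. At 7 dpf 624 had H3K4me3 alone, 486 had H3K27me3 alone and 101 had neither. H3K4me3 was thus the mark more often without a called region at 5 dpf, and H3K27me3 the one at 7 dpf. H3K4me3 regions with H3K27me3 were weaker than those without, with a median fold of 5.65 against 13.9. H3K27me3 regions with H3K4me3 were wider (1879 against 1310 bases) and of higher fold (4.78 against 4.30). H3K27me3 regions numbered 4374 at 7 dpf and 6484 at 9 dpf. The part of fold, width and number called in these shares was not tested.

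The overlap itself was largest at 9 dpf. The share of H3K4me3 regions that overlapped H3K27me3 was 8.67% at 5 dpf, 10.1% at 7 dpf and 15.8% at 9 dpf. The share of H3K27me3 regions that overlapped H3K4me3 was 29.7%, 37.6% and 41.3% at those ages. H3K4me3 regions numbered 15867, 16941 and 17877 at 5, 7 and 9 dpf. These shares follow how much was called at each age as well as where the marks lay, and the 2 cannot be told apart without the depths, which are unknown here.

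Wide H3K27me3 regions carried both marks more often than short ones. Of the 606 H3K27me3 domains of 5 kb or more, 375 (61.9%) overlapped H3K4me3, against 39.2% of shorter H3K27me3 regions. The share was 20.0% under 500 bases, 31.2% from 500 to 1000, 39.4% from 1000 to 2000, 50.5% from 2000 to 5000, 56.2% from 5000 to 10000 and 72.0% at 10000 bases or more. A wider region has more bases on which to meet another mark. Of the input peaks, the 4 on H3K4me3 were all under 500 bases, 0.810% of the 494 of that width, and no wider input peak lay on H3K4me3. On H3K27me3 lay 1.82% of input peaks under 500 bases and 5.39% of those from 500 to 1000. From 1000 to 2000 bases it was 13.5%, and 8.11% of the 37 from 2000 to 5000. These few input peaks cannot decide how much of the rise follows width alone. For H3K4me3 the share was 19.0% both under 500 bases and from 500 to 1000, 12.3% from 1000 to 2000 and 17.7% from 2000 to 5000. Of the 62 H3K4me3 domains of 5 kb or more, 34 (54.8%) overlapped H3K27me3. Domains overlapped earlier regions of their own mark, by at least 1 base, more often than shorter regions did. For H3K4me3 all 62 domains did so at 5 dpf and at 7 dpf, against 87.0% and 92.7% of shorter regions. For H3K27me3 99.5% and 99.0% of domains did so at 5 and 7 dpf, against 57.5% and 58.8% of shorter regions. How much of a domain was covered at those ages was not measured.

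Of the 5 widest H3K4me3 regions, 4 lay wholly inside an H3K27me3 region, and all 5 had a fold below the H3K4me3 median. The widest was chr1:37468357-37478647 on GRCz10, of 10291 bases, with folds of 5.47 and 5.14 in libraries 1 and 2, inside the H3K27me3 region chr1:37467872-37482068 with folds of 5.51 and 5.72. The next were chr17:52732294-52741907 (folds 8.72 and 7.92), chr9:1962334-1971639 (6.75 and 7.18) and chr8:19640309-19649102 (7.66 and 7.90). These 4 are also the longest shared stretches, and all had both marks at 5 and 7 dpf. The exception was chr9:10003883-10011709, with folds of 8.72 and 9.01, which was 31727 bases from the nearest H3K27me3 region.

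None of the 5 H3K4me3 regions of highest fold met H3K27me3. The first was chr9:745698-746845, with folds of 62.1 and 65.9, 16241 bases from H3K27me3. The others had a mean fold of 47.6 to 50.2, widths of 609 to 1961 bases and distances of 5565 to 59456 bases.

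The widest H3K27me3 regions held clusters of H3K4me3. The widest, chr23:35939196-36025970, spanned 86775 bases with folds of 5.76 and 5.80 and held 12 H3K4me3 regions, which covered 50.2% of it. The next, chr9:1957671-2015126, spanned 57456 bases with folds of 7.33 and 6.12 and held 8 H3K4me3 regions, which covered 45.4% of it. The third, chr3:23569995-23613486, spanned 43492 bases and held 9 H3K4me3 regions over 38.1% of its bases. In each, the strongest H3K4me3 region had a fold of 10.2 to 11.8, below the H3K4me3 median of 12.4. The fourth, chr17:38284712-38327412, was different: it spanned 42701 bases with folds of 6.82 and 6.90 and held 1 H3K4me3 region over 3.99% of its bases. The fifth, chr19:20139394-20178978, held 5 over 49.0%. The 8 H3K27me3 regions with 4 or more H3K4me3 regions were a group chosen after the values were seen. They lay on chromosomes 3, 9, 16, 19 and 23 and spanned 13724 to 86775 bases. Those on chromosome 3 lay within chr3:23506344-23613486 and those on chromosome 19 within chr19:20139394-20220343, so the 8 are not separate places. The neighbours chr3:23555190-23568913 and chr3:23569995-23613486 had the same strongest H3K4me3 fold, 10.5, and may share 1 H3K4me3 region. Gene annotation of GRCz10 was not used here, so the genes in these places are not named.

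The H3K27me3 regions of highest fold were of 2 kinds. The first 2, chr6:9708006-9708380 with folds of 10.8 and 10.0 and chr15:12064991-12065363 with folds of 9.37 and 9.68, were 375 and 373 bases wide and did not meet H3K4me3. The others were chr21:1713481-1721871, chr14:190397-192944 and chr14:75-12006, of 8391, 2548 and 11932 bases and mean folds of 9.47, 9.31 and 8.98, and each met H3K4me3.

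The distance between the marks was long from the side of H3K4me3 and short from the side of H3K27me3. The median distance from an H3K4me3 region to the nearest H3K27me3 region was 59.1 kb, counted as 0 where they overlapped. From an H3K27me3 region to the nearest H3K4me3 region it was 3.35 kb. Input peaks were a median of 54.7 kb from H3K4me3 and 83.4 kb from H3K27me3. H3K27me3 regions were thus much nearer to H3K4me3 than input peaks were, and H3K4me3 regions only somewhat nearer to H3K27me3. Within 10 kb of the other mark lay 24.2% of H3K4me3 regions and 60.5% of H3K27me3 regions, against 13.5% of input peaks for H3K4me3 and 17.4% for H3K27me3. Some regions lay on a scaffold without the other mark and have no distance, 253 of H3K4me3 and 41 of H3K27me3.

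Gaps of 1 to 1000 bases between the marks were few. They separated 1.16% of H3K4me3 regions and 2.78% of H3K27me3 regions from the other mark. For input peaks the shares were 2.31% from H3K4me3 and 1.34% from H3K27me3. These are shares of all regions with a distance, overlapping ones included. Since 41.6% of those H3K27me3 regions overlapped, the share among the others is larger than 2.78%. H3K27me3 regions within 5 kb of H3K4me3 were 52.7%, against 8.02% of input peaks, of which 0.543% overlapped. With overlapping regions left out, the medians were 82.3 kb for H3K4me3 to H3K27me3 and 20.4 kb for H3K27me3 to H3K4me3. For input peaks they were 55.0 kb to H3K4me3 and 91.8 kb to H3K27me3. In the single libraries the median was 58006 and 57553 bases in H3K4me3 libraries 1 and 2, and 6464 and 6094 bases in H3K27me3 libraries 1 and 2. The difference was 51.5 kb (exact two-sided permutation test, p = 0.333, the smallest possible). The H3K4me3 list was 2.76 times as long as the H3K27me3 list, and the part of list length in this difference was not tested. The median for H3K27me3 depends on how many peaks are kept: it was 1.76 and 2.28 kb without H3K4me3 library 1 or 2, and 6.09 and 6.46 kb without H3K27me3 library 1 or 2. For H3K4me3 it was 113 kb with only peaks of a -log10 q of 5 or more.

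**Figure D4:**
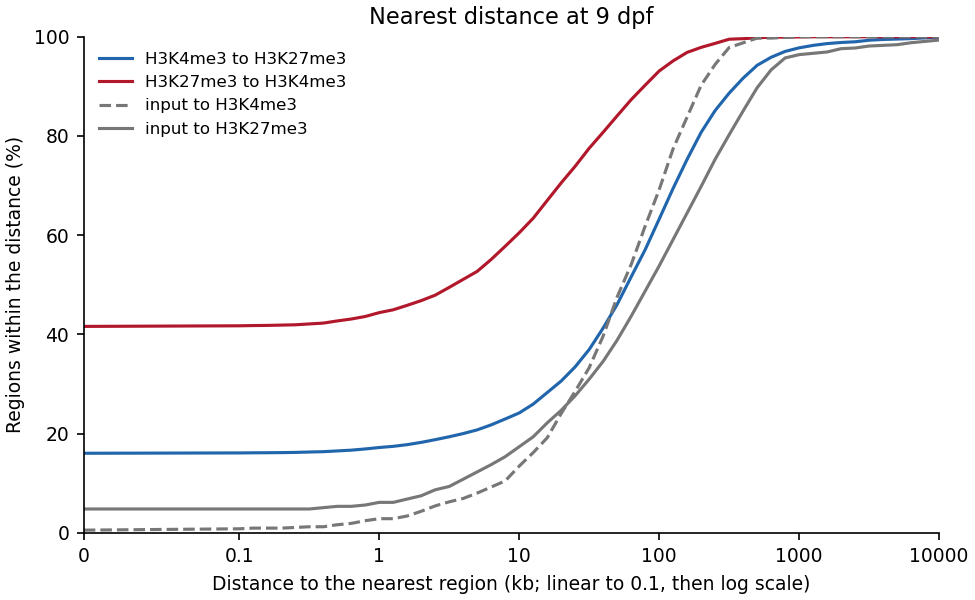
Percentage of regions (y axis) whose nearest region of the other mark lies within a given distance (x axis, in kb, linear up to 0.1 and on a log scale above), for regions with a measured distance at 9 dpf, with input peaks in grey. The H3K4me3 curve starts at 16.0%; the H3K27me3 curve starts at 41.6% and lies above the others up to 100 kb and beyond.

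Along the genome the marks kept a steady proportion on most chromosomes. The number of H3K4me3 regions per H3K27me3 region had a median of 2.60 over the 25 chromosomes and was lowest on chromosome 10, at 2.16. It was at most 3.20 on 23 chromosomes, 4.59 on chromosome 22 (721 H3K4me3 and 157 H3K27me3 regions) and 4.92 on chromosome 4 (934 and 190). Chromosome 4 held 5.22% of H3K4me3 regions and 2.93% of H3K27me3 regions, against 7.79% of input peaks. Unplaced scaffolds held 1.66%, 1.31% and 10.0% of them.

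The deviation on chromosome 4 lay on its long arm, which in zebrafish is known as rich in repeats and late to replicate. In the first 30 Mb there were 509 H3K4me3 regions, 179 H3K27me3 regions and 27 input peaks. Beyond 30 Mb there were 425 H3K4me3 regions, 11 H3K27me3 regions and 36 input peaks. The libraries were alike, with 462 and 463 H3K4me3 peaks and 14 and 15 H3K27me3 peaks beyond 30 Mb. H3K4me3 regions beyond 30 Mb were narrower and weaker, with a median width of 617 bases and a median fold of 7.60, against 1103 bases and 11.7 in the first 30 Mb. Of them 0.941% overlapped H3K27me3, against 16.5%, with only 11 H3K27me3 regions there to meet. Of the H3K27me3 regions, 36.4% beyond 30 Mb overlapped H3K4me3, against 45.8% in the first 30 Mb. Within this arm the last stretch, beyond 70 Mb, stood apart, with a median H3K4me3 fold of 12.3 and 8 of the 11 H3K27me3 regions. The same contrast was present at 5 dpf, with 368 and 409 H3K4me3 and 10 and 6 H3K27me3 peaks beyond 30 Mb, and at 7 dpf, with 458 and 466 H3K4me3 and 8 and 6 H3K27me3 peaks. Reads of repeats can map to several places, and their part in these counts was not tested.

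The longest stretch without an H3K27me3 region was chr4:47030242-71198247, 24.2 Mb that held 165 H3K4me3 regions and 17 input peaks. The next 3 such stretches, of 4.66 to 7.03 Mb, were on chromosome 4 too. The longest stretch without an H3K4me3 region was chr14:17282789-19859106, 2.58 Mb with 6 H3K27me3 regions and 7 input peaks. Median gaps between neighbouring regions were 33.1 kb for H3K4me3 and 97.2 kb for H3K27me3.

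**Figure D5:**
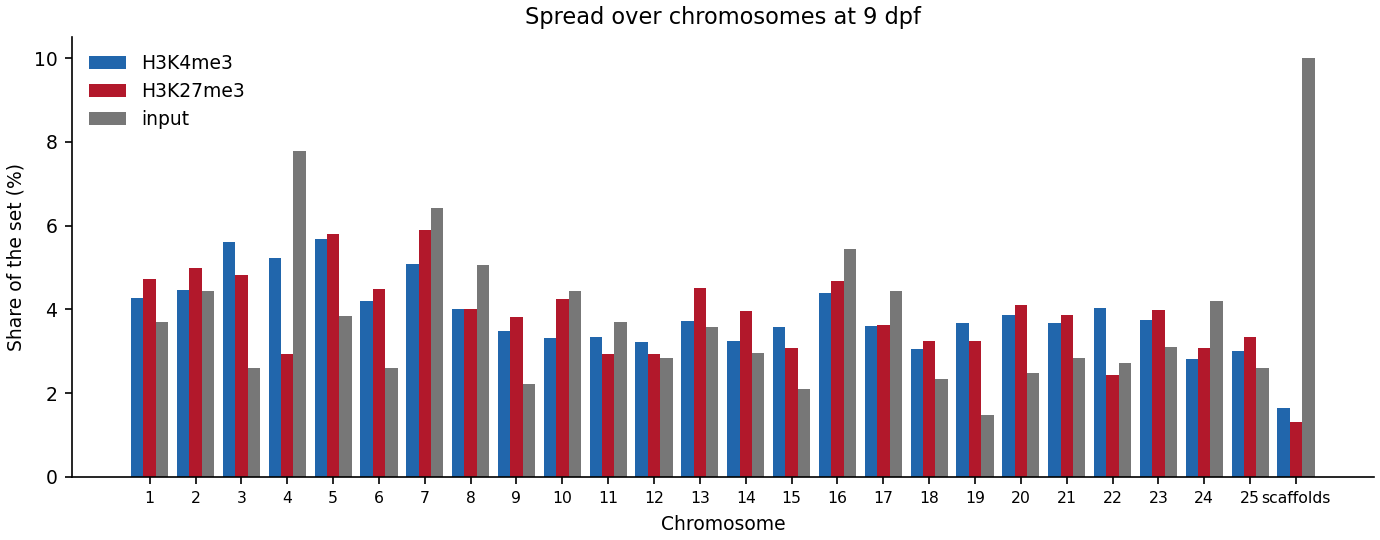
Share of the H3K4me3 regions, H3K27me3 regions and input peaks of 9 dpf (y axis, percentage of each set) on each of the 25 chromosomes and on unplaced scaffolds (x axis). Among the chromosomes the number of H3K4me3 regions per H3K27me3 region is highest on chromosome 4, with 5.22% of H3K4me3 regions, 2.93% of H3K27me3 regions and 7.79% of input peaks; unplaced scaffolds hold 10.0% of input peaks.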

How the data were processed

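The members, lists and comparisons were chosen with earlier results of these data known. Peak lists were deposited per library. The submitters' processing notes name BWA 0.7.15, Picard, MACS2 2.1.1 and the build GRCz10. The control and threshold are not given in the sources used here, the lowest deposited -log10 q at 9 dpf is 3.02, and the depth of the ChIP libraries is unknown. For each peak the authors gave a fold (a ratio), the -log10 p and -log10 q, and a score equal to 10 times the -log10 q without its decimals. The RNA table holds a signal by the authors, counts divided by 1 size factor per library, with STAR 2.5.2b named in the same notes.

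Peaks of both libraries sharing at least 1 base were joined with Python 3.11.15, numpy 2.4.6 and pandas 2.3.3, and the code was tested on simulated intervals against bedtools 2.31.1. Coordinates are 1-based. Distances are bases between region ends on the same chromosome. Tests are exact two-sided permutation tests over libraries, never over regions, so none can pass 0.05 with 2 libraries per mark. Named regions are the 5 widest and 5 of highest fold per mark, the pairs ranked first by the lower of the percentiles of their folds (10 were listed, 3 are named), and the longest shared stretches. Alternatives were a reciprocal overlap of 50%, a -log10 q of 5, only bases or blocks called, a larger overlap, no input peaks, no scaffolds, no chromosome 4, each library left out and a replicate block. RNA level by promoter class was not analysed here, as no gene positions on GRCz10 were used.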

Additional observations from a re-analysis of the deposited data

Results flagged for a closer look

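The difference in median peak width between the marks changed sign between ages at the authors' threshold. H3K4me3 minus H3K27me3, over the peaks of single libraries, was -119.5 bases at 5 dpf, -8.5 bases at 7 dpf and 148.5 bases at 9 dpf. At 5 dpf both H3K4me3 libraries (805 and 932 bases) were below both H3K27me3 libraries (933 and 1043 bases), and at 9 dpf both H3K4me3 libraries (1051 and 1022 bases) were above both H3K27me3 libraries (876 and 900 bases). The difference between the ages was not tested. With only peaks of a -log10 q of 5 or more the value at 9 dpf was -461.5 bases. That threshold was not applied at 5 or 7 dpf, so this value has no counterpart at those ages. The number of H3K27me3 peaks per library was 6163 and 5704 at 5 dpf, 5922 and 5990 at 7 dpf and 9119 and 8753 at 9 dpf, and its part in the change was not tested. In regions found in both libraries H3K4me3 had the lower median width at all ages, with 1011 against 1607 bases at 5 dpf, 1105 against 1663 at 7 dpf and 1141 against 1526 at 9 dpf.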

How the results depend on the processing

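Alternatives for the fold groups, the width band, equal numbers of regions and single libraries' own peaks were chosen after the data were seen.

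With a reciprocal overlap of 50% between libraries, the log2 ratio of median widths was -0.52, covered bases had a ratio of 1.71, the chromosome 4 share of H3K27me3 was 3.10%, the overlap was 12.5% of H3K4me3 and 42.2% of H3K27me3 regions, the median distance of H3K4me3 to H3K27me3 was 80.7 kb, and highest minus lowest fold group was -38.5 (H3K4me3) and 31.4 points (H3K27me3).

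With a -log10 q of at least 5, 3574 H3K27me3 regions were left. The log2 width ratio was -0.88, the covered-base ratio 1.87, the fold ratio 2.56, the chromosome 4 shares 5.28% (H3K4me3) and 3.02% (H3K27me3), the overlaps 9.86% and 44.7%, the median distances 113 kb and 2.54 kb, and the fold-group differences -30.2 and 19.6 points. The library median width difference reversed to -461.5 bases (exact p = 0.333, the smallest possible; p was 0.333 under all unblocked alternatives with 2 libraries per mark).

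With only bases called in both libraries, the log2 width ratio reversed to 0.16, the covered-base ratio was 1.66, the H3K27me3 overlap 37.8% and its distance 4.15 kb. With blocks only these were 0.22 (reversed), 2.29 and 33.0%, and the H3K4me3 overlap was 11.5%. Over each library's own peaks the log2 width ratio was also 0.22. An overlap of 50% of the smaller region gave 15.2% and 39.9%. Without regions on input peaks the H3K27me3 fold-group difference was 40.9 points. On numbered chromosomes only the chromosome 4 shares were 5.31% and 2.97%. Without chromosome 4 the H3K4me3 overlap was 16.2% and its distance 56.6 kb. The cause of these changes was not tested.

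Leaving out each library gave a log2 width ratio of -0.58 to 0.38, positive (0.34 and 0.38) without H3K27me3 library 1 or 2, when the peaks of 1 library stand for the mark. The covered-base ratio was 1.37 to 1.55, the fold ratio 2.59 to 2.96, and the chromosome 4 shares 5.22% to 5.34% for H3K4me3 and 2.93% to 2.97% for H3K27me3. Overlaps were 16.5% to 17.2% and 32.4% to 45.0%, distances 45.4 to 58.0 kb and 1.76 to 6.46 kb, and fold-group differences -50.2 to -47.8 and 45.6 to 50.8 points.

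With a replicate block the differences were 148.5 bases, -16.1 points and 51.5 kb, and the sign-flip p of 2 pairs cannot go below 0.5. The same-number check gave r = -0.009 over 2843 pairs of regions. A correlation over regions cannot show whether libraries of the same number came from the same pool. Pairing is therefore unknown, and it was not used in the main comparison. Alternatives for RNA level by promoter class were not run, as that comparison was not analysed here. Unknown depth limits all counts of regions.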

Other observations

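In windows of 1 Mb along the 25 chromosomes, 1220 of 1351 held regions of both marks at 9 dpf, 117 held H3K4me3 alone, 8 held H3K27me3 alone and 6 held neither. A window held a median of 12 H3K4me3 regions and at most 87, and a median of 4 H3K27me3 regions and at most 56. The counts of the marks had a Spearman rho of 0.460 and a Pearson r of 0.345 over the 1351 windows, which share the same libraries and are not independent samples. By chromosome, the share of H3K27me3 regions with H3K4me3 ran from 29.1% to 49.7%, and the share of H3K4me3 regions with H3K27me3 from 8.18% to 21.7%.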
